A study of Mus musculus with 12 samples.

Results

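Interleukin-1 (IL-1) family genes, tumour necrosis factor (TNF) and chemokine genes were followed in oligodendrocyte precursor cells (OPCs) and neurons of the mouse cortex: the cytokines Il1a, Il1b, Il18, Il6 and Tnf, the IL-1 receptor antagonist Il1rn, the IL-1 receptor Il1r1, and the chemokines Ccl2, Ccl3 and Ccl4. They were taken by symbol and make up 10 of the 30165 genes counted in OPCs and 10 of the 17918 genes counted in neurons. Earlier results of these data, among them the comparison in OPCs, were known when these genes were listed. Their values in OPCs are therefore given as a description, with no test. The comparison in neurons was tested, but on genes that were not chosen blind to these data.

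RNA sequencing compared control mice (ctl, labelled WT) with dKO mice, in which tamoxifen induced Cre recombination in NG2-expressing cells (NG2-CreERT2) to delete the L-type calcium channel genes for Cav1.2 and Cav1.3, through floxed exons 14 and 15 of Cacna1c and floxed exon 2 of Cacna1d. Tamoxifen was given at 100 mg/kg on postnatal days 7 and 8. Whether ctl mice carried Cre or floxed alleles or received tamoxifen, and the age of the mice sequenced, are not given in the sources used here. Cells of 2 mice were pooled per library, and each of the 4 groups (ctl and dKO, OPCs and neurons) had 3 libraries from 6 mice. OPCs were selected on magnetic beads for CD140, for NG2 and for O4, and were held at 37 °C before selection. Neurons were the cells left after removal of those that bound beads for ACSA-2 (astrocytes), CD31 (endothelial cells), CD11b (microglia) or O4.

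IL-1α and IL-1β are made by the neighbouring genes Il1a and Il1b and signal through the receptor encoded by Il1r1, which Il1rn blocks without signalling. IL-1β and IL-18 are made as inactive precursors and are cut by caspase-1 in the inflammasome. IL-1 and TNF receptors both activate NF-kB, which drives transcription of Il6, of chemokines such as Ccl2, Ccl3 and Ccl4 that attract monocytes and other leukocytes, and of inhibitors that shut the pathway down. In the brain, microglia are a main source of Il1a, Il1b, Tnf, Ccl3 and Ccl4, and endothelial cells are a main site of Il1r1.

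Total counts ranged from 14935963 to 19812274 per library in OPCs and from 15052898 to 16344611 in neurons. Of the targeted genes, Cacna1c had 407 ± 33.1 normalized counts in ctl OPCs and 300.4 ± 43.5 in dKO OPCs, without overlap of the libraries, and Cacna1d had 232 ± 36.1 and 159 ± 69.9, with overlap (mean ± SD here and throughout; n = 3 libraries per group). The cell type labels were compared with marker lists, summed in CPM (counts scaled to library size) without scaling to gene length. In OPC libraries the 11 OPC markers summed to between 1226 and 2347 CPM and the 9 oligodendrocyte markers to between 47439 and 82656 CPM. All 6 thus held more oligodendrocyte marker counts than OPC marker counts, and the name OPCs is used here after the label. In neuron libraries the 11 neuron markers summed to between 612 and 1417 CPM, and the 12 endothelial markers to between 12357 and 27795 CPM. The libraries labelled neurons therefore held more endothelial marker counts than neuron marker counts in all 6 cases, and they are called neuron libraries here after their label. In such bulk libraries fewer cells of a type and less RNA per cell cannot be told apart.

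As deposited, Il1a (ENSMUSG00000027399) lies at chr2:129141530-129151892 and Il1b (ENSMUSG00000027398) at chr2:129206490-129213059, both on the minus strand and 54.6 kb apart. Ccl3 (ENSMUSG00000000982, chr11:83538670-83540181, minus strand) and Ccl4 (ENSMUSG00000018930, chr11:83553410-83555509, plus strand) are 13.2 kb apart. Ccl2 (ENSMUSG00000035385) lies on the same chromosome at chr11:81926397-81928279, 1610.4 kb before Ccl3. Il1rn (ENSMUSG00000026981) is at chr2:24226865-24241506, Il1r1 (ENSMUSG00000026072) at chr1:40264240-40356417, Il18 (ENSMUSG00000039217) at chr9:50466127-50493140, Il6 (ENSMUSG00000025746) at chr5:30218112-30224979 and Tnf (ENSMUSG00000024401) at chr17:35418357-35420983. All 10 are protein-coding genes and these ranges span whole genes. The submitters' processing notes name mm39, whereas the study's methods name GRCm38, so these positions are not to be mixed with the promoter positions that follow.

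RefSeq promoter sequences of GRCm38.p6 were found for 8 of the 10 genes (not for Ccl2 and Ccl4). The 100 bases before the transcription start are shown for Il1a, Il1b and Tnf, all higher on average in dKO OPCs, for Il6, whose promoter holds an NF-kB match, and for Il18, which was not higher. Capitals mark matches to TATAAA on the sense strand, to TGANTCA (the AP-1 motif) and to the 10-letter NF-kB motif, the last pair on both strands.
Il1a, chr2:129309973-129310072 (minus strand): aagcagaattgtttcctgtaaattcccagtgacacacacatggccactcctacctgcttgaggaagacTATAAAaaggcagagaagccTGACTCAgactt
Il1b, chr2:129371140-129371239 (minus strand): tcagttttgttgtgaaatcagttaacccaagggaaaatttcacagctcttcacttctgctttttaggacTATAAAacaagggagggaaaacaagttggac
Tnf, chr17:35202008-35202107 (minus strand): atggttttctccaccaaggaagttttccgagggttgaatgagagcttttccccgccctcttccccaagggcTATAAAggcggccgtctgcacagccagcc
Il6, chr5:30013014-30013113 (plus strand): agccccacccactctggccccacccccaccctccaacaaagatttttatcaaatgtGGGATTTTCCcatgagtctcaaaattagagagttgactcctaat
Il18, chr9:50554600-50554699 (plus strand): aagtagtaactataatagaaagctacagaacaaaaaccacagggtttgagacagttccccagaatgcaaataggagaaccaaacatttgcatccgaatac
TATAAA began 32 bases before the start in Il1a, 31 in Il1b and 29 in Tnf. Among all 32851 promoters in the table, 7.59% held TATAAA within 250 bases before the start. The NF-kB match of Il6 began 44 bases before the start, where 7.25% of promoters held such a match within 250 bases. An AP-1 match began 12 bases before the start in Il1a and, beyond the stretch shown, 249 bases before it in Il6, and 6.75% of promoters held one. The C/EBP motif TTGCNNAA (9.56% of promoters) and the CRE motif TGACGTCA (1.55%) were also searched on both strands, and Il6 held a C/EBP match that began 128 bases before its start. Of the promoters not shown, one of Il1rn held an AP-1 match, one of Il1r1 a C/EBP match and another of Il1r1 an NF-kB match. No match to any of these motifs was found in the 250 bases before Il18, nor in those of Ccl3.

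To see how the genes differed between genotypes in OPCs, counts were normalized to a common library size. Of the 10 genes, 7 had all 3 dKO libraries above all 3 ctl libraries: Il1a, Il1b, Il1rn, Il6, Ccl2, Ccl3 and Ccl4. Among the 9 that passed the filter on low counts (a mean normalized count of at least 10), these were 6 and 8 had a higher mean in dKO (7 of 8 without Il6, which passed only through its dKO libraries), as did 50.8% of all genes. Over all 17364 genes tested, 7.41% were separated in this direction (17% in either direction). Tnf lay above all ctl libraries in 2 of 3 dKO libraries, and Il1r1 and Il18 overlapped. The genes were chosen on this contrast, so the counts are a description only.

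Il1b, the secreted IL-1 cytokine that needs caspase-1, had 49.0, 22.6 and 30.3 normalized counts in ctl OPC replicates 1 to 3 and 127, 82.6 and 185 in dKO replicates 1 to 3. Its mean was 34.0 ± 13.6 in ctl and 132 ± 51.4 in dKO OPCs, for a log2 fold change of 1.93 (SE 0.39). The lowest dKO library still lay above the highest ctl library.

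Il1a, whose product is active without cleavage, had 92.7, 92.9 and 102 normalized counts in ctl OPCs and 331, 132 and 477 in dKO OPCs. The ctl libraries hardly differed from each other, with a coefficient of variation of 5.75%, whereas that of the dKO libraries was 55.4%. The log2 fold change was 1.70 (SE 0.41).

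Il1rn, the receptor antagonist, had few reads in OPC libraries, with 1 read in each ctl library and 3, 5 and 5 reads in the dKO libraries. It did not pass the filter. The ratio of its summed reads, 13 in dKO to 3 in ctl, was 4.11 after scaling to library size, with an exact 95% interval of 1.13 to 22.5 that covers counting error only. Reads of the antagonist were therefore few in every library in which Il1a and Il1b were counted.

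Il1r1, the signalling receptor, had 438, 268 and 429 normalized counts in ctl OPCs and 517, 269 and 602 in dKO OPCs. Its groups overlapped, with dKO replicate 2 at the level of the lowest ctl library, and the log2 fold change was 0.28 (SE 0.30). Il18, the other inflammasome substrate, had 403, 544 and 479 in ctl and 432, 383 and 460.0 in dKO OPCs. Its log2 fold change of -0.16 (SE 0.15) made it the only gene of the 9 tested with a lower mean in dKO OPCs.

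Tnf had 50.7, 44.1 and 36.6 normalized counts in ctl OPCs and 129, 43.6 and 240 in dKO OPCs. Here dKO replicate 2 lay within the ctl range and the other dKO libraries well above it. The log2 fold change was 1.64 (SE 0.54), and 0.96 without dKO replicate 3. Il6, a secreted cytokine downstream of NF-kB, had 9, 1 and 6 raw reads in ctl OPCs and 22, 10 and 36 in dKO OPCs. The ratio of summed reads was 4.04 (exact 95% interval 2.32 to 7.46, counting error only).

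Among the chemokines, Ccl3 had 60.4, 39.3 and 41.8 normalized counts in ctl OPCs and 194, 63.5 and 263 in dKO OPCs (log2 fold change 1.86, SE 0.48). Ccl4, its neighbour, had 98.9, 83.4 and 104 in ctl and 374, 117 and 461 in dKO OPCs (1.73, SE 0.44). In both genes dKO replicate 2 lay just above the ctl libraries and the other dKO libraries lay far above them. Ccl2, the main attractant of CCR2-bearing monocytes, had 30.6, 38.1 and 35.5 in ctl and 53.8, 57.2 and 104 in dKO OPCs, with the smallest of these chemokine differences (1.04, SE 0.34).

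The dKO libraries were not alike. Replicate 3 was the highest of the 6 OPC libraries for 9 of the 10 genes, all but Il18, and replicate 2 was the lowest dKO library for 8 of the 10. Without replicate 3 the log2 fold change was 1.26 for Il1a, 1.60 for Il1b, 1.43 for Ccl3, 1.35 for Ccl4 and 0.67 for Ccl2, and Il6 fell under the filter. The smaller values also rested on single libraries: Il1r1 was at 0.04 without dKO replicate 3, 0.09 without ctl replicate 2 and 0.56 without dKO replicate 2, and Il18 ran from -0.27 without ctl replicate 1 to -0.05 without ctl replicate 2.

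**Figure D1:**
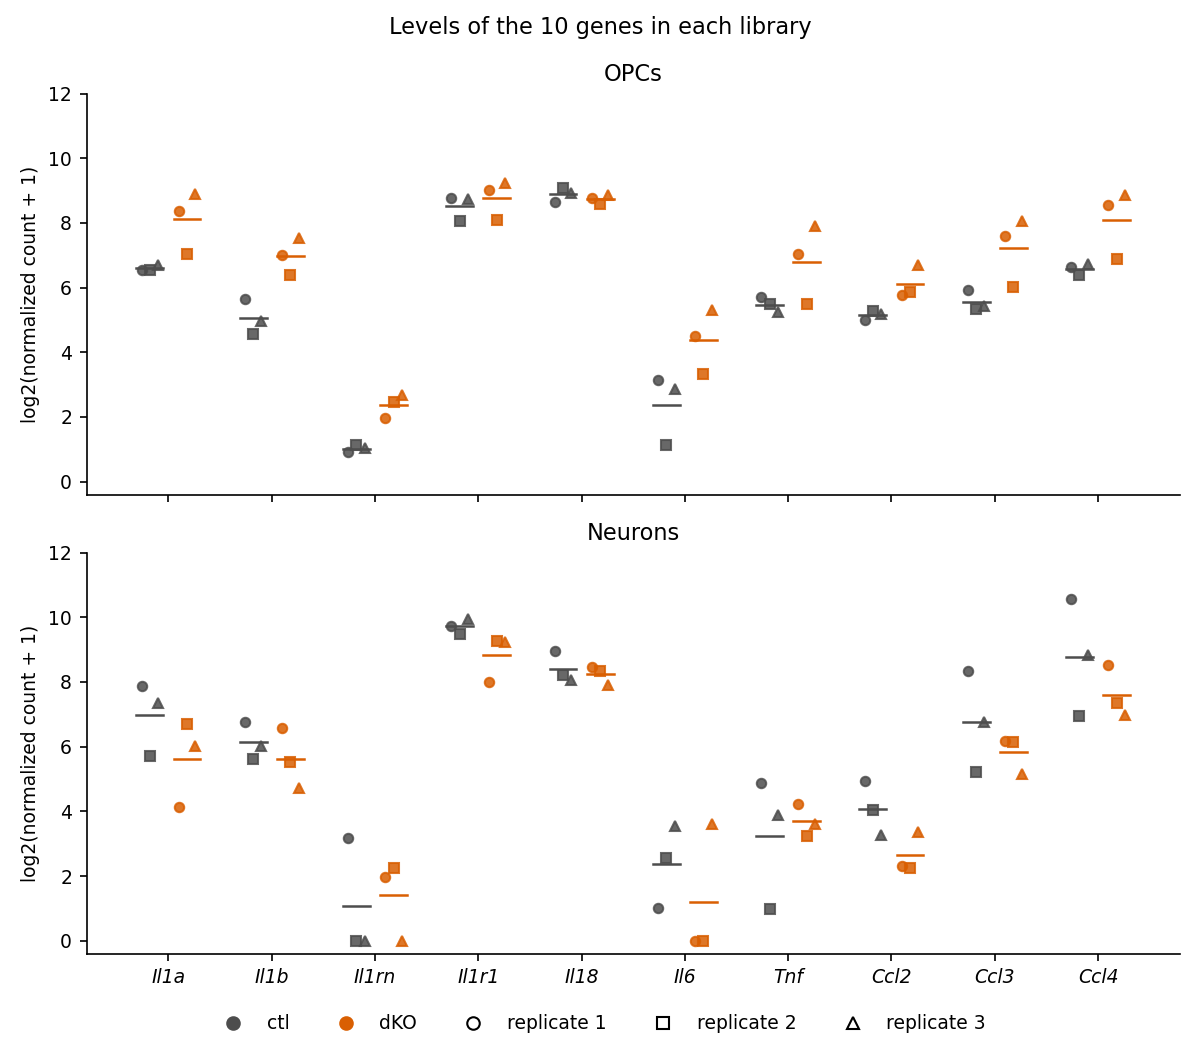
Levels of the 10 genes as log2(normalized count + 1) in OPC libraries (top) and neuron libraries (bottom), with 1 point per library, colour for genotype, point shape for replicate number and a line at the mean of the 3 log2 values. In OPCs the dKO points lie above the ctl points for 7 genes, with dKO replicate 2 (squares) nearest to ctl for most of them, and in neuron libraries only Il1r1 is separated, with dKO lower.

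Levels of different genes were compared per length, in the deposited FPKM, in which counts are scaled to gene length and library size. In ctl OPCs Il18 was highest at 26.2 ± 4.13 FPKM, followed by Ccl4 at 8.22 ± 0.896. Ccl3 (3.49 ± 0.821), Il1r1 (3.38 ± 0.833) and Il1a (2.76 ± 0.162) followed, each overlapping the next. Ccl2 (1.74 ± 0.205), Tnf (1.52 ± 0.238) and Il1b (1.01 ± 0.394) also overlapped in sequence. Il6 at 0.119 ± 0.0808 and Il1rn at 0.0107 ± 0.00172 were lowest, without overlap with their neighbours in the order. In dKO OPCs Ccl4 came first at 27.4 ± 15.4 FPKM, overlapping Il18 at 23.5 ± 2.19. Ccl3 (12.9 ± 7.52), Il1a (9.04 ± 4.99), Tnf (4.77 ± 3.40), Il1r1 (4.14 ± 1.55), Il1b (3.93 ± 1.53) and Ccl2 (3.58 ± 1.38) formed a chain of overlapping ranges, above Il6 (0.540 ± 0.345) and Il1rn (0.0439 ± 0.0124).

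Markers of other cells moved with these genes in OPC libraries. Of 20 microglia markers, 19 were higher in dKO OPCs and 10 were separated; their median log2 fold change was 1.32, against 0.01 over all genes. None was at 0 in the table. Their summed level was 432, 430 and 485 CPM in ctl replicates 1 to 3 and 1160, 515 and 1501 CPM in dKO replicates 1 to 3, so dKO replicate 2 was again nearest to ctl and replicate 3 the highest. The defining microglia genes Cx3cr1, P2ry12, Tmem119 and Csf1r had log2 fold changes of 1.49, 1.32, 1.66 and 1.41. Border macrophage markers, among them Mrc1 (0.71) and Cd163 (0.56), were higher for 8 of 8 (median log2 fold change 0.66) and summed to between 57.4 and 66.7 CPM in ctl and between 68.2 and 135 CPM in dKO. Of 12 markers of monocytes and neutrophils, 11 were in the OPC table, and they summed to between 5.31 and 7.71 CPM in ctl (mean 6.19) and between 5.61 and 26.5 CPM in dKO (mean 16.2), with overlap. The 8 lymphocyte markers summed to between 0.341 and 0.538 CPM in ctl and between 0.571 and 2.26 CPM in dKO, low in both but without overlap. None of the 8 passed the filter on low counts, so the gap between the groups rests on few reads.

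The genes were also set against the summed counts of the microglia markers in the same library. Per 1000 such counts, Il1a was at 12.2 ± 0.153 in ctl and 16.4 ± 1.79 in dKO OPCs, and it alone stayed separated with dKO higher. Il1b ran from 3.01 to 6.50 in ctl and from 6.27 to 9.17 in dKO. Means in ctl and dKO were 6.06 ± 1.69 and 8.87 ± 1.60 for Ccl3, 12.2 ± 1.01 and 16.3 ± 2.93 for Ccl4, 5.64 ± 1.22 and 6.78 ± 2.18 for Tnf, and 4.44 ± 0.552 and 4.32 ± 1.87 for Ccl2. All of these ranges overlapped. Il1r1 (48.1 ± 11.4 and 26.1 ± 3.47) and Il18 (60.8 ± 10.2 and 27.1 ± 13.5) were lower per microglia marker count in dKO OPCs, without overlap. Without this division both genes overlapped between genotypes. The summed markers, by which they were divided, had means of 449 CPM in ctl and 1059 CPM in dKO OPCs. The part of microglial RNA in the differences was not tested.

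**Figure D2:**
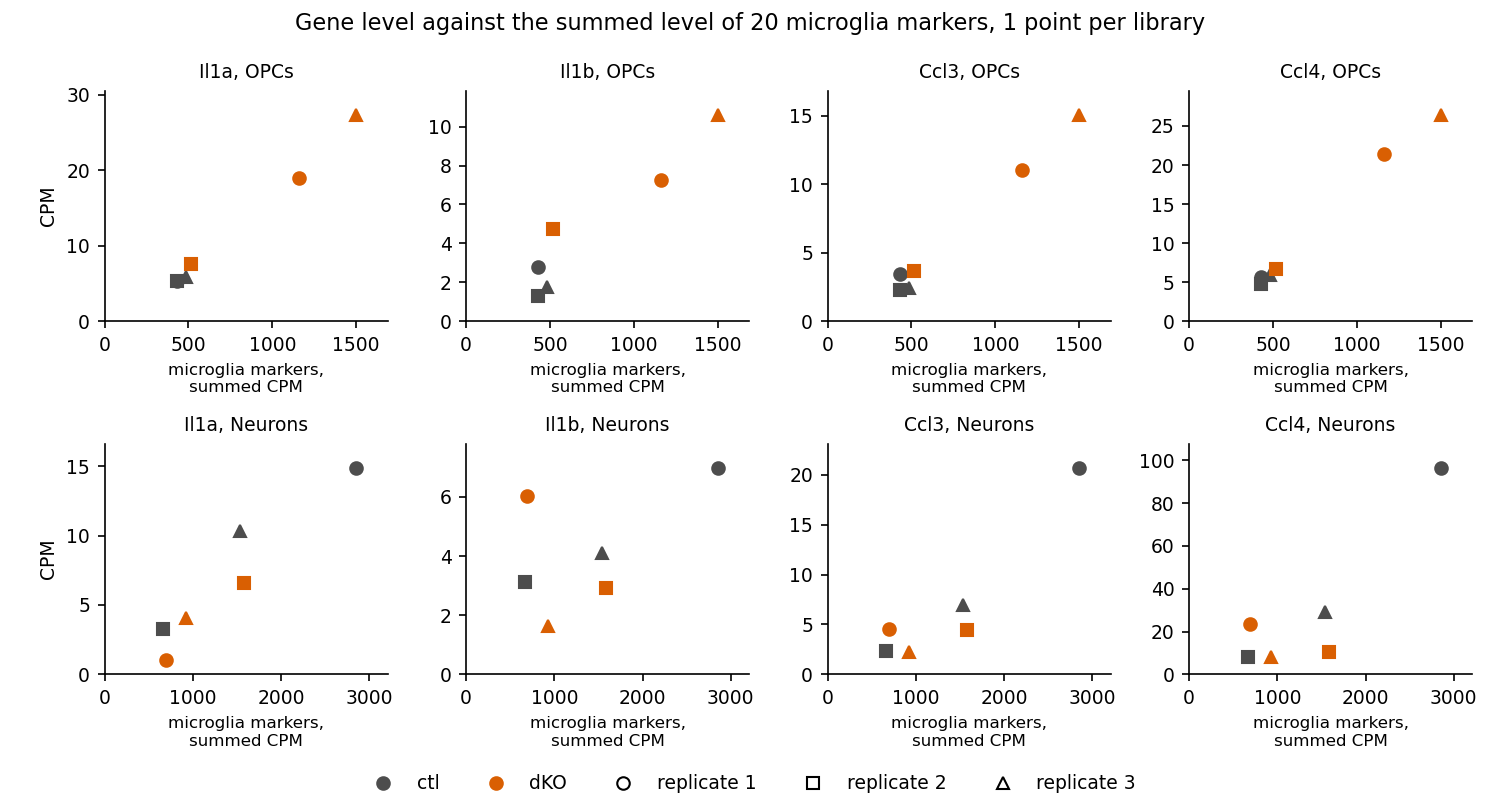
CPM of Il1a, Il1b, Ccl3 and Ccl4 (vertical axes) against the summed CPM of 20 microglia markers (horizontal axes), with 1 point per library, in OPC libraries (top row) and neuron libraries (bottom row). In OPCs the dKO libraries with most marker counts, replicates 1 (1160 CPM) and 3 (1501 CPM), also have the highest level of each gene, and in neuron libraries ctl replicate 1 (2853 CPM) has the highest. Among dKO neuron libraries, replicate 1 has the fewest marker counts, with the highest Il1b and Ccl4 and the lowest Il1a.

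Astrocyte markers were also higher in dKO OPCs, for 9 of 9 genes (median log2 fold change 1.10, and 0.62 without dKO replicate 2), and summed to between 1076 and 1905 CPM in ctl and between 1844 and 5498 CPM in dKO. Their highest library was dKO replicate 2, the lowest dKO library for 8 of the 10 cytokine, receptor and chemokine genes. Endothelial markers were higher for 12 of 12 (median log2 fold change 0.35) with overlapping sums, 1391 to 2022 CPM in ctl and 1147 to 3128 CPM in dKO. This depended on single libraries: 7 of 12 were higher without dKO replicate 3 (median 0.02), and the median was 0.20 without ctl replicate 2 and 0.69 without dKO replicate 2. Genes of the dissociation and immediate early response were higher for 17 of 17, at a median of 0.26 (15 of 17 and 0.07 without dKO replicate 3, and 14 of 17 without ctl replicate 1 or dKO replicate 1), and their sums overlapped (10090 to 11111 CPM in ctl and 9640 to 13509 CPM in dKO). Fos, Fosb and Jun, its first 3 genes, had log2 fold changes of 0.12, 0.05 and 0.20. Oligodendrocyte markers had lower means in dKO for 7 of 9 (median -0.42, and -0.26 without ctl replicate 2). Means were higher for 10 of 11 neuron markers (0.39, and 0.20 without dKO replicate 2), 8 of 11 OPC markers (0.57, and 0.06 without dKO replicate 2) and 6 of 8 mural cell markers (0.39, and 0.10 without dKO replicate 1), and the summed levels of all 4 lists overlapped between genotypes. The part of these cells and of this response in the differences was not tested.

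Other genes of the same pathways were then counted, as a description, since their lists were drawn up with earlier results of these data known. The lists leave out the 10 and hold 114 genes. In OPCs 90 of them were tested, 69 with a higher and 21 with a lower mean in dKO. By edgeR's quasi-likelihood test 25 had an unadjusted p under 0.05, all higher, against 6.27% of all genes tested, and 0 had an adjusted p under 0.05, against 0.00576% of all genes. DESeq2 called 2, where it called 1.69% of all genes. Their median log2 fold change was 0.31. In 4 genes the ctl mean was under 10, so that they were tested only through their dKO libraries, and without them 22 of 86 had an unadjusted p under 0.05. The count depended on single libraries. Without dKO replicate 3 it was 10, of which 8 were higher and 2 lower, and the median was 0.15. The count was 11 without ctl replicate 2 and 16 without ctl replicate 3.

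The members of the NF-kB feedback and target list were higher in dKO OPCs for 16 of 16 (median log2 fold change 0.50). By edgeR 6 of them had an unadjusted p under 0.05, against 6.27% of all genes in this direction. Without dKO replicate 3, 14 of 16 were higher, at a median of 0.28, and 4 had such a p. The number was also 4 without ctl replicate 1 or ctl replicate 2, and 9 without dKO replicate 1 or dKO replicate 2. By edgeR, Cd83, a surface protein of activated antigen-presenting cells, had a log2 fold change of 1.43 (SE 0.36, adjusted p = 0.287). Tnfaip3, the NF-kB inhibitor A20, was at 1.04 (SE 0.33, adjusted p = 0.323) and Ptgs2, cyclooxygenase-2, at 0.77 (SE 0.24, adjusted p = 0.313). Among 20 other chemokines and receptors tested 16 were higher and 10 had an unadjusted p under 0.05. Without dKO replicate 3 these were 2, without ctl replicate 2 they were 4 and without ctl replicate 3 they were 6. Leaving out Ccl24 and Ccl5, which passed the filter only through their dKO libraries, 8 of 18 had an unadjusted p under 0.05. The 10 included Ccl7, which binds CCR2 as Ccl2 does (1.19, SE 0.32, adjusted p = 0.296), Cxcl2, a neutrophil attractant (1.06, SE 0.33, adjusted p = 0.313), and Cxcl14 (1.43, SE 0.44, adjusted p = 0.313).

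Of 10 IL-1 family ligands and processing genes tested in OPCs, 8 were higher and 3 had an unadjusted p under 0.05: Casp4, an inflammatory caspase (1.11, SE 0.39), Nlrp3, the inflammasome sensor (1.06, SE 0.42), and its partner Nek7 (0.30, SE 0.12). None of the list was at an unadjusted p under 0.05 by edgeR without ctl replicate 1, without ctl replicate 2 or without dKO replicate 1. Of 4 IL-1 family receptors tested, Il1rl2, the IL-36 receptor, was separated at 9.86 ± 1.30 and 22.9 ± 8.94 normalized counts, and passed the filter only through its dKO libraries. Il1rap, the shared co-receptor of the family, was at 4212 ± 719 and 3459 ± 358, with overlap. Among 7 TNF family genes tested, 3 had an unadjusted p under 0.05, the receptors Tnfrsf11a (1.24, SE 0.36), Tnfrsf1b (1.00, SE 0.32) and Tnfrsf1a (0.37, SE 0.15), and 1 of 6 tested had one without dKO replicate 3. The 10 IL-6 family genes tested had 8 higher means and none with an unadjusted p under 0.05 (5 without dKO replicate 2 and 1 without ctl replicate 1), Osm being at 1.57 (SE 0.74), Il6ra at 0.57 (SE 0.28) and Jak1 at 0.22 (SE 0.12).

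The signal transducers between receptors and target genes were divided. Of 23 tested, 13 had a higher mean in dKO and 10 a lower one, and the median difference on the log2 scale was 0.01. Rel, an NF-kB subunit (0.49, SE 0.19), and Irak2, an IL-1 receptor kinase (0.63, SE 0.24), had an unadjusted p under 0.05. Neither did without ctl replicate 1 or without dKO replicate 3, and in the latter case 2 transducers with lower means did. Chuk, the kinase IKKα, was at 1672 ± 65.2 in ctl and 1423 ± 126 in dKO OPCs, without overlap.

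**Figure D3:**
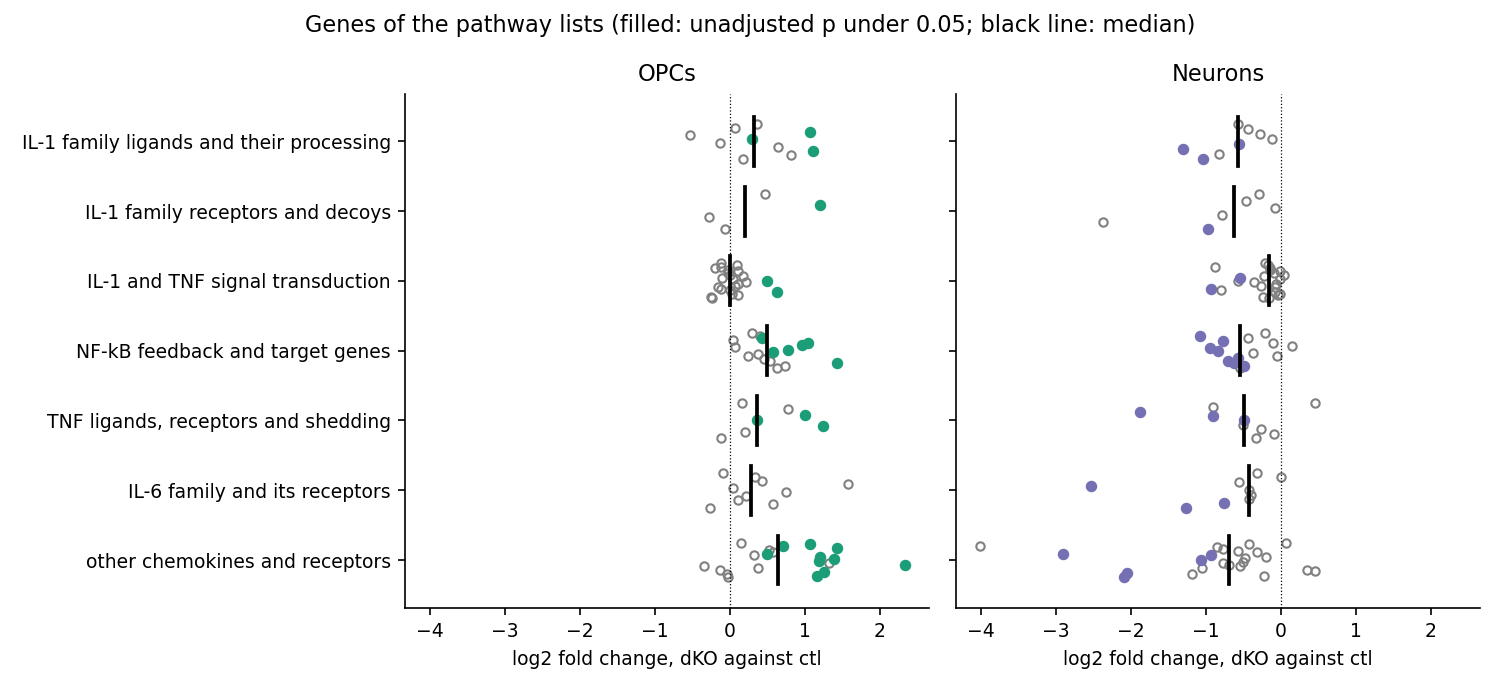
Log2 fold change of dKO against ctl for each tested gene of the 7 pathway lists (1 point per gene; the 10 genes described first are left out) in OPCs (left) and neuron libraries (right), filled where the unadjusted p of edgeR's quasi-likelihood test was under 0.05, with a black line at each list's median. All 25 filled points in OPCs lie above 0 and all 25 in neuron libraries lie below 0, and the signal transducers in OPCs centre on 0. The lists were drawn up with earlier results of these data known.

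In neuron libraries the same 10 genes, listed with earlier results of these data known, were tested between genotypes. Means were lower in dKO for 8 of 8 genes that passed the filter, with a median log2 fold change of -1.03 (-0.79 without Ccl2, which passed only through its ctl libraries) against 0.01 over all 14352 genes tested, of which 48.9% were lower. The median of these genes was -0.30 without ctl replicate 1 and -1.29 without ctl replicate 2. By edgeR's quasi-likelihood test none of the 8 had an adjusted p under 0.05 (0 also with DESeq2), and 0% of all genes did in edgeR and 0.613% in DESeq2. Il1r1 alone had an unadjusted p under 0.05, against 4.04% of all genes in this direction, and Il1r1 alone was separated, against 7.83% of all genes (15.3% in either direction). Members with an unadjusted p under 0.05 numbered 0 without ctl replicate 1, 4 without ctl replicate 2 and 2 without any one of the dKO replicates, and 2 with DESeq2, with no filter or with the replicate block.

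Il1r1 had 851, 718 and 986 normalized counts in ctl replicates 1 to 3 and 258, 618 and 605 in dKO replicates 1 to 3. All dKO libraries lay below all ctl libraries, and dKO replicate 1 lay far below the others. By edgeR's quasi-likelihood test the log2 fold change was -0.79 (SE 0.31, adjusted p = 0.523), and it was -0.48 without dKO replicate 1. Beside it, endothelial markers were lower in dKO for 12 of 12 genes, 8 of them without overlap, at a median of -0.39 (-0.18 without dKO replicate 1). Their sum was 25834, 23816 and 27795 CPM in ctl and 12357, 21086 and 21549 CPM in dKO, with the same library, dKO replicate 1, lowest. Cldn5, a tight-junction gene, was at -0.51 (SE 0.21) and Pecam1, which encodes CD31, at -0.35 (SE 0.22). The part of endothelial RNA in the level of Il1r1 was not tested.

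The chemokines had lower means in dKO neuron libraries, with overlap of the groups. Ccl4 had 1501, 124 and 456 normalized counts in ctl and 365, 161 and 125 in dKO, with a log2 fold change of -1.67 (SE 0.78, adjusted p = 0.558 by edgeR). The ctl libraries spanned the whole dKO range. Ccl3 had 322, 36.0 and 108 in ctl and 70.5, 70.1 and 34.8 in dKO (-1.41, SE 0.70, adjusted p = 0.583 by edgeR). Ccl2 was low throughout, at 29.5, 15.6 and 8.57 in ctl and 3.92, 3.79 and 9.21 in dKO (-1.65, SE 0.73, adjusted p = 0.554 by edgeR).

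Il1a had 232, 51.6 and 162 normalized counts in ctl neuron libraries and 16.7, 103 and 63.5 in dKO (-1.28, SE 0.69, adjusted p = 0.610 by edgeR). Il1b had 109, 48.6 and 64.3 in ctl and 94.0, 45.4 and 25.6 in dKO (-0.42, SE 0.54, adjusted p = 0.836 by edgeR). Both overlapped between genotypes. Tnf had 28.4, 0.973 and 13.9 in ctl and 17.6, 8.52 and 11.3 in dKO, so that the dKO libraries all lay within the ctl range (-0.21, SE 0.92, adjusted p = 0.961 by edgeR). Il18 had 493, 296 and 264 in ctl and 356, 323 and 241 in dKO (-0.19, SE 0.27, adjusted p = 0.854 by edgeR), and the 95% interval of its log2 fold change ran from -0.82 to 0.43.

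Il1rn and Il6 did not pass the filter in neuron libraries. Il1rn had 8, 0 and 0 estimated reads in ctl and 3, 4 and 0 in dKO. Il6 had 1, 5 and 10 in ctl and 0, 0 and 11 in dKO. A count of 0 allows up to 3 reads in a library. The ratio of summed reads of dKO to ctl was 0.872 for Il1rn (exact 95% interval 0.269 to 2.75) and 0.685 for Il6 (0.288 to 1.57), intervals that cover counting error only, and no difference was detectable at this depth. All 11 dKO reads of Il6 came from one library, a spread between libraries that the interval leaves out.

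A single library carried much of the direction in neurons. Ctl replicate 1 was the highest of the 6 libraries for 8 of the 10 genes, all but Il1r1 and Il6. Without it, 7 genes passed the filter and 5 of them were lower in dKO, with a log2 fold change of -0.80 for Il1a, -0.30 for Ccl3, -0.42 for Ccl4 and -0.04 for Il1b, while Il18 (0.13) and Tnf (0.75) were higher. The same library had the most microglia marker counts, 2853 CPM against 666 and 1538 CPM in the other ctl libraries and 693, 1581 and 923 CPM in dKO. Among the dKO libraries, replicate 1 had the fewest of these counts but the highest Il1b (94.0 normalized counts), Ccl4 (365), Il18 and Tnf. Il1a and Il1r1 were lowest there and highest in dKO replicate 2, which had the most marker counts of the dKO libraries. Microglia markers were lower in dKO for 19 of 20 genes (median log2 fold change -0.70), and for 8 of 20 without ctl replicate 1 (median 0.06). Cells bearing CD11b, which microglia carry, were to be removed by the beads, and Csf1r, Cx3cr1, P2ry12 and Tmem119 were above 0 in all neuron libraries. Per 1000 microglia marker counts, Il1a was at 5.63 ± 0.968 in ctl and 3.37 ± 1.59 in dKO neuron libraries, without overlap. The other genes overlapped on this scale. Their means were higher in dKO for Il1b, Il1rn, Il18 and Tnf and lower for Il1r1, Il6, Ccl2, Ccl3 and Ccl4. The part of microglial RNA in these values was not tested.

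**Figure D4:**
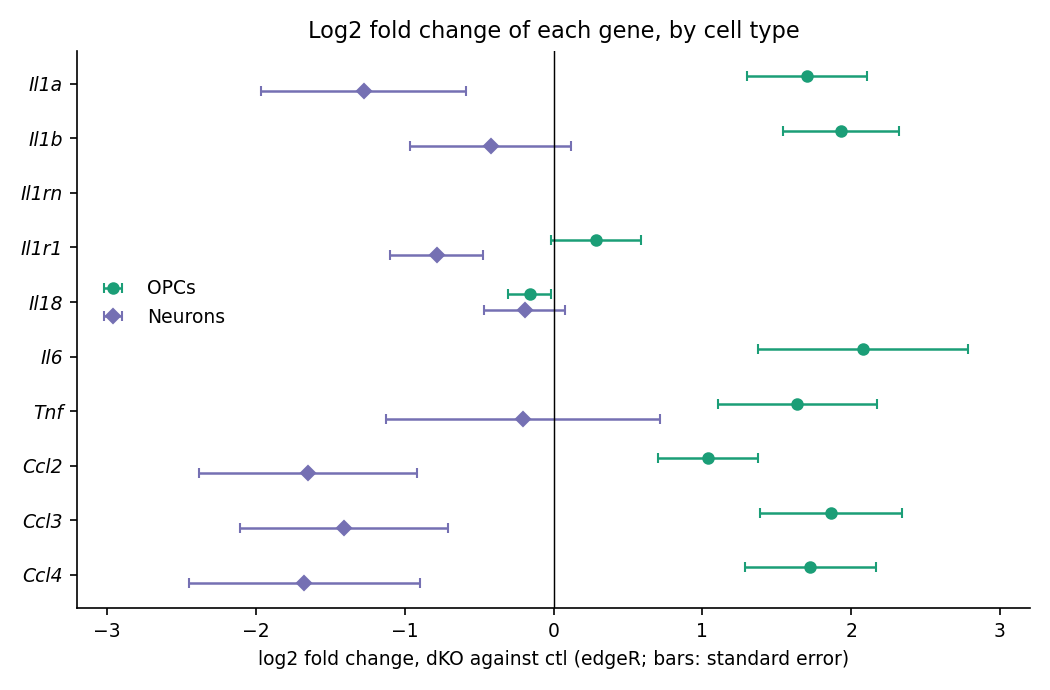
Log2 fold change of dKO against ctl for each gene that passed the filter on low counts, with its standard error, in OPCs (circles) and neuron libraries (diamonds). Values run from 1.04 (Ccl2) to 2.08 (Il6) for 7 genes in OPCs and from -1.67 (Ccl4) to -0.19 (Il18) in neuron libraries, and the cell types were not tested against each other.

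Per length, Ccl4 was the highest of the 10 genes in ctl neuron libraries at 105 ± 111 FPKM, and its range overlapped those of Il18 (22.2 ± 7.93). Ccl3 (17.9 ± 17.6) and Il1r1 (11.52 ± 1.66) came next. Below Il1r1 and clear of it were Il1a (5.39 ± 3.38), Il1b (3.99 ± 1.81), Ccl2 (2.00 ± 1.24), Tnf (0.647 ± 0.631), Il6 (0.387 ± 0.321) and Il1rn (0.0800 ± 0.139), each overlapping the next. In dKO neuron libraries Ccl4 (33.7 ± 20.5) and Il18 (19.95 ± 4.56) overlapped, and Il18 was clear of Il1r1 (6.94 ± 2.85) and Ccl3 (6.92 ± 2.45).

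In the pathway lists, drawn up with earlier results of these data known, 93 genes were tested in neuron libraries. Of these genes, 6 had a higher and 87 a lower mean in dKO, at a median log2 fold change of -0.48. By edgeR 25 had an unadjusted p under 0.05, all lower, against 4.04% of all genes, and 0 had an adjusted p under 0.05 (0 with DESeq2, which called 0.613% of all genes). In 5 genes the dKO mean was under 10, so that they were tested only through their ctl libraries, and without them 24 of 88 had an unadjusted p under 0.05. The count was 6 without ctl replicate 1 and 8 without dKO replicate 3. Beside these genes, markers of several other cells had lower means in dKO neuron libraries: oligodendrocytes for 9 of 9 (median -0.98), border macrophages for 7 of 8 (-0.87), monocytes and neutrophils for 7 of 7 tested (-0.57) and astrocytes for 8 of 9 (-0.39). Neuron markers had higher means for 9 of 11 (median 0.51). Without ctl replicate 1 the medians were -0.07, -0.52, -0.28 and 0.43 for these other cells and 0.31 for neurons, and without dKO replicate 1 they were -0.84, -0.75, -0.15 and -0.09, and -0.08 for neurons. The part of these cells in the pathway genes was not tested. The NF-kB feedback and target list had 8 genes at an unadjusted p under 0.05 of 15 tested, and 2 without ctl replicate 1 or without dKO replicate 3. Among them Nfkbia, the inhibitor IκBα, was at 6873 ± 1342 in ctl and 4644 ± 333 in dKO, without overlap (-0.57, SE 0.18, adjusted p = 0.521 by edgeR).

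Of 8 IL-1 family ligands and processing genes tested in neuron libraries, 8 were lower and 3 were separated: Casp4 (-1.30, SE 0.41), Aim2, a sensor of cytosolic DNA (-1.03, SE 0.34), and Gsdmd, the pore-forming gasdermin D (-0.56, SE 0.20). Among the receptors Il18bp, the IL-18 decoy, was at -0.97 (SE 0.40), and Il18r1 at -2.37 (SE 1.06), with a dKO mean under 10. Osm, an IL-6 family cytokine, was at 24.99 ± 11.6 in ctl and 4.20 ± 2.97 in dKO, without overlap (-2.53, SE 0.74), and passed the filter only through its ctl libraries. The TNF receptors Tnfrsf1b (-0.91, SE 0.30) and Tnfrsf1a (-0.49, SE 0.20) were separated, and Tnfrsf9 (-1.87, SE 0.67) was not. Of the transducers, 22 of 23 were lower at a median of -0.15 (12 of 23 and -0.03 without dKO replicate 1), Irak4 (-0.93, SE 0.31) and Relb (-0.54, SE 0.21) being separated. Ccr2, the receptor of Ccl2, was at -1.06 (SE 0.39), with overlap. None of these genes had an adjusted p under 0.05 by edgeR. Of 81 pathway genes tested in both cell types, 5 were separated with dKO higher in OPCs and dKO lower in neuron libraries, against 0.799% of all genes tested in both, and the cell types were not tested against each other.

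Which genes varied most like Il1b and Il1r1 was read from 13397 genes tested in both cell types, over 12 libraries, as the root mean square difference in log2(CPM + 1) after centring each cell type on its mean. Nearest to Il1b were Bin2 (0.278), Coro1a (0.307) and Lyz2 (0.324), where Il1b itself varied by 0.703. Of the genes described here Tnf was nearest to Il1b at rank 28 (0.412), then Ccl3 at rank 102 (0.476) and Ccl2 at rank 244 (0.532), and Il1a was at rank 8173 (0.763). Nearest to Il1r1, which varied by 0.519, were Slc39a8 (0.0882), Gbp9 (0.120) and Slco1a4 (0.127), the last of which is in the list of endothelial markers. Il1b was at rank 11915 from Il1r1 (0.769). These are descriptions: genes of a library share its depth and cell make-up, and weakly expressed genes vary less on this scale.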

How the data were processed

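RNA sequencing gave 12 libraries: ctl and dKO, OPCs and neurons, 3 each. The study's methods name HISAT2 2.0.5, GRCm38 and featureCounts 1.5.0-p3 for all samples. For OPCs the authors deposited raw counts per Ensembl gene and FPKM. For neurons the sources used here name no program that estimates counts per transcript. The authors deposited estimated counts and FPKM for 66298 RefSeq transcripts. These were summed per Entrez gene (17794 of 17918 identifiers had a symbol; the rest held 0.0441% of counts) and rounded. FPKM served only to order genes within a group. The authors' columns of fold changes and p-values were not used.

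Each cell type was fitted alone, since the tables were counted in different ways. Where the mean count after TMM normalization was 10 or more, genes were compared in edgeR 4.0.16 (R 4.3.3) by the quasi-likelihood test, genotype as the only term, Benjamini-Hochberg adjustment over all genes tested at 0.05. Standard errors are the size of the log2 fold change over the root of F. The fit was also run on simulated counts with the same relative spread for every gene and no shift in cell make-up between libraries. That run does not show how the fit performs on these libraries. Nothing says that library preparation or sorting was independent beyond the pooled mice, so p-values measure the spread between these libraries. No library copies another: the lowest chi-square per gene between replicates was 15.9. The members, gene lists and markers were chosen with earlier results of these data known. Named were all members, up to 3 genes of smallest p per pathway list and cell type, the 3 genes most like Il1b and Il1r1, the targeted genes and leading markers; 4 microglia markers and the first 2 or 3 genes of other lists were eligible. Alternatives were DESeq2 1.42.0, its size factors, no filter, a replicate block, an adjusted threshold and each library left out.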

Additional observations from a re-analysis of the deposited data

Results flagged for a closer look

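Among the 81 pathway genes tested in both cell types, 5 had all dKO libraries above all ctl libraries in OPCs and below them in neuron libraries. Of all genes tested in both, 0.799% had this pattern, and 0 of the pathway genes had the reverse. The genes had been listed with earlier results known. Cd83 had log2 fold changes of 1.43 in OPCs and -0.62 in neuron libraries. Tnfrsf1a, the main TNF receptor, was at 0.37 and -0.49. Nfkbiz, an atypical IκB protein, was at 0.57 and -0.84, Birc3, an inhibitor of apoptosis, at 0.74 and -0.49, and the neutrophil chemokine Cxcl1 at 0.50 and -0.94. The last 3 were named after their values were seen. Each was picked out because every library moved one way in one cell type and the opposite way in the other, and the difference between the cell types was not tested. Microglia markers had a median log2 fold change of 1.32 in OPCs and -0.70 in neuron libraries, where it was 0.06 without ctl replicate 1, and their part in these genes was not tested.

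Of the named markers, Gfap, an intermediate filament gene of astrocytes, showed the same opposite pattern, with 0.60 in OPCs and -0.96 in neuron libraries. It had 1272 ± 203 normalized counts in ctl and 1922 ± 202 in dKO OPCs, and 224 ± 94.2 in ctl and 115 ± 34.6 in dKO neuron libraries. Astrocyte markers, of which Gfap is one, had higher means in dKO for 9 of 9 in OPCs (median 1.10) and lower means for 8 of 9 in neuron libraries (median -0.39, and 0.43 without ctl replicate 1). None of the 10 cytokine, receptor and chemokine genes met this description, since those separated in OPCs overlapped in neuron libraries.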

How the results depend on the processing

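In OPCs all 89 alternative log2 fold changes of the 9 genes tested kept the sign of the reported value. In neuron libraries 75 of 79 did, for 8 genes: with each library left out Tnf ran from -0.76 to 0.75 and Il18 from -0.36 to 0.13, and no adjusted p passed 0.05. With each library left out, genes at an unadjusted p under 0.05 numbered 1106 to 2292 in OPCs (2003 with all libraries) and 780 to 1581 in neuron libraries (1292). Pathway genes numbered 10 to 37 and 6 to 29 (25 in each cell type). Members without overlap numbered 7 to 9 in OPCs and 1 to 4 in neuron libraries, but leaving a library out can hardly lower this count, so it says nothing of stability. At an adjusted p under 0.05 edgeR called 1 gene in OPCs and 0 in neuron libraries, against 293 and 88 with DESeq2; in OPCs it called 87 without the filter and 199 without dKO replicate 2. The cause of these shifts was not tested. Low counts limit Il1rn and Il6 in both cell types.

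The replicate block turned Tnf in neuron libraries to 0.25 and called 27 genes in OPCs. Deviations of same-numbered libraries correlated at -0.15, 0.19 and 0.17 in OPCs and at 0.17, -0.04 and -0.05 in neuron libraries, so the numbers were not taken as pairing and not every library correlated best with its own number.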

Other observations

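Neuron libraries held transcripts of T lymphocytes that OPC libraries hardly held. Cd3d and Cd3e, subunits of the T cell receptor complex, had 164 ± 76.8 and 37.3 ± 15.2 normalized counts in ctl neuron libraries, and 107 ± 64.4 and 23.5 ± 25.5 in dKO (mean ± SD, 3 libraries per group). In OPC libraries their means were at or under 1.14 normalized counts in each genotype. The 8 lymphocyte markers summed to between 105 and 360.1 CPM in ctl and between 63.4 and 232 CPM in dKO neuron libraries, with overlap, and 5 of 8 had a lower mean in dKO. By edgeR none of the 8 had an unadjusted p under 0.05, whereas 5 did, all lower, without dKO replicate 1, 3 without ctl replicate 2 and 2 with the replicate block.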
